A study of Bos taurus with 19 samples.

Results

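LPL, CD36 and FABP4 encode proteins along the route by which a fat cell takes up fatty acids, and the reads of these genes in the subcutaneous adipose tissue of 19 Holstein Friesian bull calves are described here. They were selected by identifier, 3 rows of the 25670 in each count file: ENSBTAG00000012855 for LPL, ENSBTAG00000017866 for CD36 and ENSBTAG00000037526 for FABP4. Reads were counted on LPL and FABP4 in every animal, whereas the identifier given for CD36 had none in any of the 19 libraries.

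Fat reaches adipose tissue in the blood mainly as triglyceride inside lipoproteins. Lipoprotein lipase (LPL) is made by adipocytes and carried to the wall of the capillary, where it splits this triglyceride and frees fatty acids. CD36 is a membrane protein that takes up long-chain fatty acids, and it is found on adipocytes as well as on endothelial cells, macrophages and platelets. Fatty acid-binding protein 4 (FABP4) is an abundant protein of the adipocyte cytosol that binds fatty acids and carries them inside the cell, and it is also made by capillary endothelial cells and macrophages. Both LPL and FABP4 are known to rise as precursor cells become adipocytes.

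The study asked how nutrition in early calf-hood alters subcutaneous adipose tissue. Male calves were put on a high plane of nutrition, labelled with a growth rate of 1.08 kg/day, or on a low plane, labelled with 0.5 kg/day. They were slaughtered at 126 days of age. The paper describes 10 calves on each plane, whereas the libraries used here come from 10 high and 9 low animals. The growth rate that the paper reports for the low group is somewhat above its label. The high animals were offered more milk replacer and unrestricted concentrate, the low animals a restricted amount of each, and all had straw. The tissue came from the flank, visible blood vessels were removed, and each library holds the RNA of 1 animal and of all cell types in the piece sampled, so that fewer adipocytes and less RNA per adipocyte cannot be told apart in any value below.

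Counted reads per library ranged from 8608800 to 17691547 in the high and from 7656100 to 12348770 in the low animals, and the libraries of the high animals were larger (mean difference in log2 reads, low minus high, -0.31; p = 0.0239 in a two-sided exact permutation test over 92378 splits). No pair of libraries of 1 diet differed as little as sampling noise, with a smallest chi-square per degree of freedom of 25.2 in the high and 28.9 in the low animals. Levels are given as CPM, a count scaled to its library, after trimmed mean of M-values scaling (TMM CPM). The scaling factors ran from 0.829 to 0.987 in the high and from 1.05 to 1.15 in the low animals, without overlap. Differences in TMM CPM between the diets include this scaling, and results without it are also given below. The high animals D64 and D75 and the low animal D78 were known from an earlier analysis of these counts to lie towards the other diet, and results are therefore also given without them.

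LPL, the lipase at the start of the route, was lower in the low animals. In the high animals its lowest level was 279.8 TMM CPM in D75, the median was 1336 and the highest was 5364 in D62. In the low animals the lowest was 67.9 TMM CPM in D77, the median was 176 and the highest was 513 in D78. No gap separated the diets, as it did in 1.27% of the genes tested with the low animals beneath. Of the 10 high animals, 8 lay above every low animal, and 7 of the 9 low animals lay below every high animal. The overlap came from the high animals D64 and D75, at 343 and 279.8 TMM CPM, and the low animals D70 and D78, at 356 and 513.

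LPL averaged 1934 ± 1690 TMM CPM (SD) over the 10 high animals. Over the 9 low animals it averaged 205 ± 142 (SD). The log2 fold change, low minus high, was -3.24 (SE 0.54), a 9.46-fold lower level, with an FDR of 0.000257 in the quasi-likelihood test of edgeR with Benjamini-Hochberg adjustment over 10064 genes. A gene was called differentially expressed at an FDR below 0.05 and a fold change above 2, which 5.36% of the genes tested met in the direction of a lower level in the low animals. By the size of its fall LPL stood at place 29 of the 10064 genes, and by its p-value at place 266.

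FABP4, the carrier inside the cell, was also lower in the low animals. In the high animals its lowest level was 356 TMM CPM in D75, the median was 2729 and the highest was 6381 in D62. In the low animals the lowest was 185 TMM CPM in D69, the median was 522 and the highest was 1650 in D70. The diets overlapped more than for LPL: 7 of the 10 high animals lay above every low animal, but only 3 of the 9 low animals lay below every high animal. The high animals inside the range of the low animals were D61, D64 and D75.

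FABP4 averaged 3063 ± 2130 TMM CPM (SD) over the 10 high animals. Over the 9 low animals it averaged 634 ± 473 (SD). Its log2 fold change, low minus high, was -2.27 (SE 0.51), a 4.83-fold lower level, with an FDR of 0.00199 in the edgeR quasi-likelihood test. FABP4 stood at place 88 of the 10064 genes by the size of its fall and at place 1094 by its p-value. Taking each high animal against each low animal, the high animal had the greater level in 86 of 90 pairs for LPL and in 80 of 90 pairs for FABP4.

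**Figure D1:**
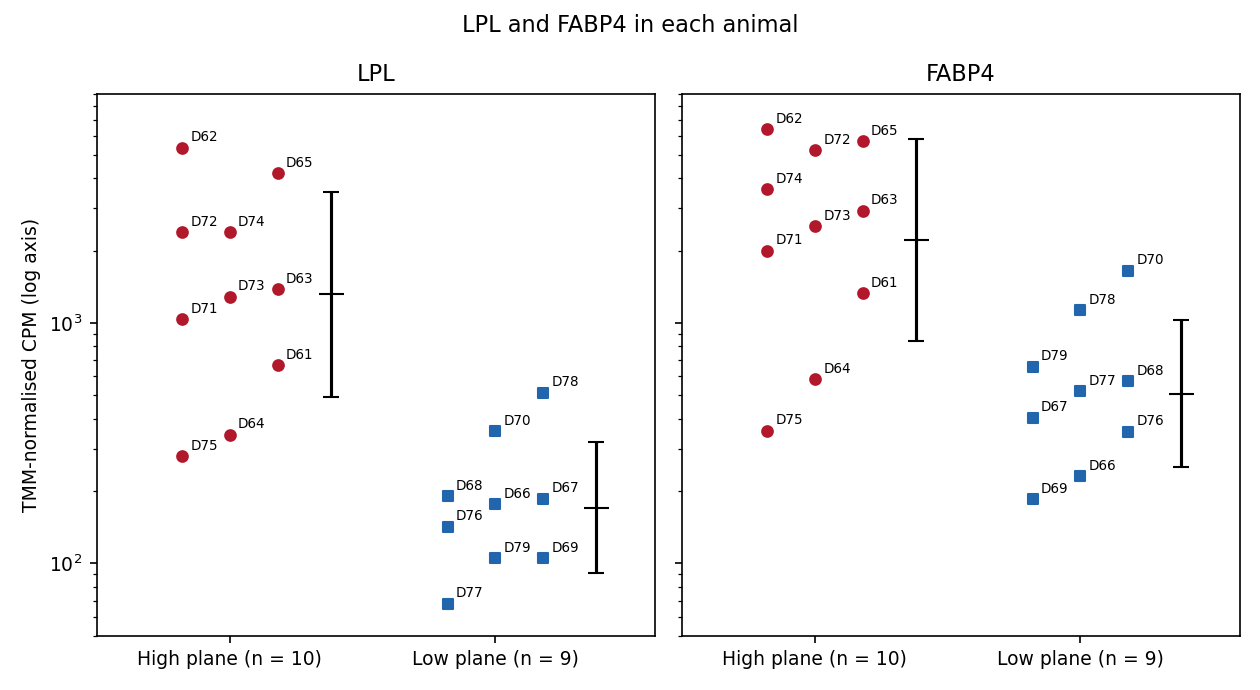
TMM-normalised CPM of LPL and FABP4 in each animal on a log axis, by diet, with the animal's name beside its point and bars for the mean ± SD of the log2 values (n = 10 high, n = 9 low). The low animals reach 513 for LPL and 1650 for FABP4, and D64 and D75 are the lowest of the high animals in both panels.

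**Figure D2:**
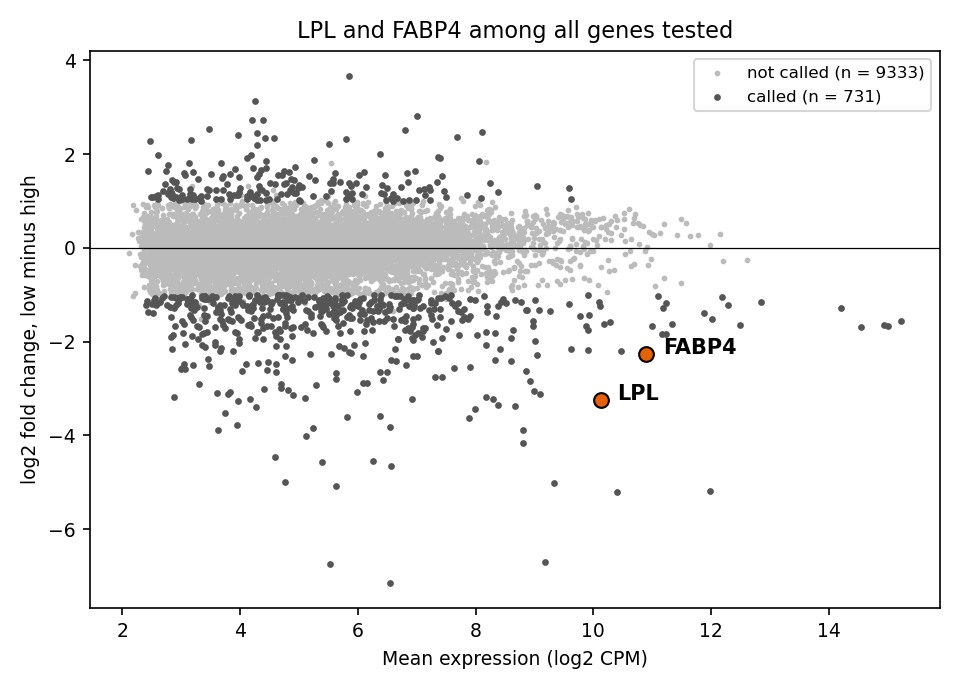
The log2 fold change, low minus high, of each of the 10064 genes tested against its mean expression in log2 CPM, with genes past both thresholds in dark grey. LPL at -3.24 and FABP4 at -2.27 hold places 29 and 88 of the 10064 by the size of their fall.

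D64, D75 and D78 were picked for lying towards the other diet, so leaving them out was bound to enlarge the difference and is no sign of stability. When D64 and D75 were left out, the log2 fold change was -3.52 (SE 0.46) for LPL and -2.55 (SE 0.42) for FABP4, and when D78 was left out as well it was -3.82 (SE 0.44) and -2.71 (SE 0.43). Leaving out each of the 19 animals in turn gave -3.56 to -2.93 for LPL and -2.61 to -2.09 for FABP4, and both genes passed both thresholds each time. The low end of the size came without the high animal D62, the highest of all for both genes. Without TMM scaling, on library totals alone, the median gene moved from a log2 fold change of 0.02 to 0.30. The genes called lower and higher then numbered 314 and 483 in place of 539 and 192. On that scale LPL was at -2.92 and FABP4 at -1.95, which is -3.22 and -2.25 relative to the median gene.

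Library size in the model changed the call of FABP4 and not that of LPL. In a model with a term for log2 library size, the log2 fold change of FABP4 was -1.62 (SE 0.64) and its FDR in the edgeR quasi-likelihood test rose to 0.0779, so that it was no longer called. LPL stayed called in that model, at -2.94 (SE 0.72) and an FDR of 0.00971. Library sizes differed between the diets but overlapped, and the SE of both genes was larger in this fit than without the term. The unadjusted p of FABP4 in this quasi-likelihood test was 0.0200. Over all genes tested, the number called fell from 731 to 488 with the term. The term fits the same slope on library size to both diets, and whether that slope differs between them was not tested. With every library thinned to the size of the smallest, LPL was at -3.25 and FABP4 at -2.27, both called. Thinning evens out depth only and leaves any relation of level with library size in place. It therefore does not bear on the lost call of FABP4.

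Within the high animals, FABP4 in log2 TMM CPM was higher in the larger libraries (log2 counted reads, Pearson's r = 0.76, permutation p = 0.0103, adjusted p = 0.0309; Spearman's rho = 0.66, permutation p = 0.0434, adjusted p = 0.121; n = 10). In LPL of the same animals r was 0.69 (permutation p = 0.0274, adjusted p = 0.0547) and rho 0.62 (permutation p = 0.0603, adjusted p = 0.121). Within the low animals the sign was the opposite for LPL, with r = -0.64 (exact permutation p = 0.0609, adjusted p = 0.0914) and rho = -0.53 (exact permutation p = 0.148, adjusted p = 0.221; n = 9). In FABP4 of the low animals r was -0.23 (exact permutation p = 0.556, adjusted p = 0.556) and rho -0.25 (exact permutation p = 0.521, adjusted p = 0.521). Without the 2 animals farthest from the median library size, r was 0.62 for LPL and 0.71 for FABP4 in the high animals (n = 8), and -0.47 and 0.21 in the low animals (n = 7). No difference in these relations between the diets was tested.

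**Figure D3:**
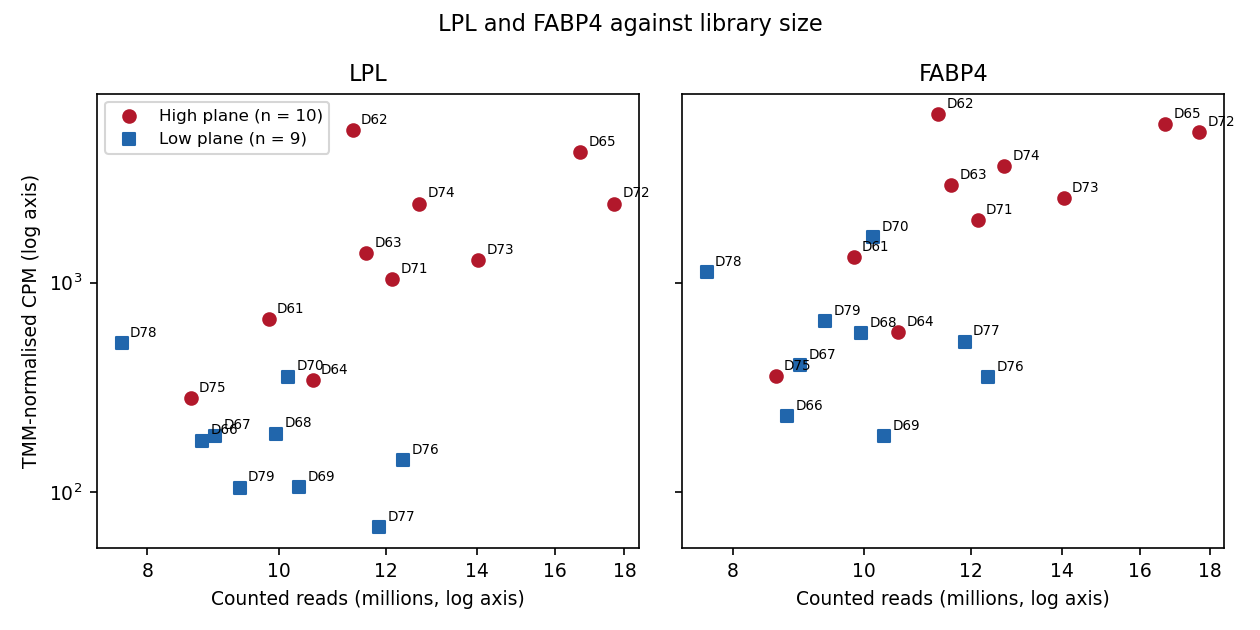
TMM-normalised CPM of LPL and FABP4 against counted reads, both on log axes, 1 point per animal (n = 10 high, n = 9 low). The 2 largest libraries, D65 and D72, are high animals with high levels of both genes, and the smallest, D78, is the low animal with the highest LPL.

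The share of all counted reads uses no scaling factor. LPL took 0.169% ± 0.140 (SD) of the reads in the 10 high animals and 0.0223% ± 0.0150 (SD) in the 9 low animals, a difference of -0.147 percentage points (two-sided exact permutation test, p = 0.000325). The largest LPL share was 0.443% in D62 (95% Wilson interval 0.439 to 0.446) and the smallest was 0.00775% in D77 (0.00727 to 0.00827). FABP4 took 0.269% ± 0.176 (SD) in the 10 high animals and 0.0693% ± 0.0520 (SD) in the 9 low animals, a difference of -0.199 percentage points (exact permutation test, p = 0.00327). Its share ran from 0.0203% in D69 (0.0194 to 0.0212) to 0.526% in D62 (0.522 to 0.531). Together the 2 genes took 0.969% of the reads of D62 and 0.0318% of those of D69, the extremes of the 19 animals.

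Ranked by reads among the 25670 identifiers of a library, and so not per length, LPL stood between place 19 in D62 and place 474 in D75 in the high animals, and between place 234 in D78 and place 2796 in D77 in the low animals. FABP4 stood between place 14 in D65 and place 358 in D75 in the high animals, and between place 42 in D70 and place 840 in D69 in the low animals. The fewest reads behind a value were 920 for LPL, in D77, and 2101 for FABP4, in D69, for which counting error alone is 3.30% and 2.18%. These intervals and errors cover counting only, and the spread between animals of a diet was far larger.

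That spread was wide even within a diet. Among the high animals the highest level was 19.2 times the lowest for LPL and 17.9 times for FABP4, and among the low animals it was 7.56 and 8.92 times. The SD of log2 TMM CPM in the high animals was 1.42 for LPL and 1.40 for FABP4, against a median of 0.29 over all genes tested. In the low animals it was 0.90 for LPL and 1.01 for FABP4, against a median of 0.33. By this SD the 2 genes held places 82 and 89 of 10064 in the high animals and places 375 and 261 in the low animals. The biological coefficient of variation fitted by edgeR was 0.714 for LPL and 0.699 for FABP4, where the median gene had 0.228.

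The fall in LPL was larger than that in FABP4. The ratio of their reads within a library depends neither on library size nor on scaling, though without gene length it is no ratio of transcripts. Between diets its log2 value differed by -0.82, from -0.75 ± 0.32 (SD) in the 10 high animals to -1.58 ± 0.86 (SD) in the 9 low animals (p = 0.0101, two-sided exact permutation test). Per FABP4 read there were 0.457 to 0.841 LPL reads in the high animals (median 0.555). In the low animals there were 0.130 to 0.765 and the median was 0.402.

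Of the 9 low animals, 6 had fewer LPL reads per FABP4 read than any high animal, and D66, D67 and D69 lay inside the range of the high animals. The lowest ratios were those of D77 at 0.130, D79 at 0.159 and D70 at 0.216. The difference of the medians was smaller, at -0.46 on the log2 scale (exact permutation test, p = 0.00814). Without D64 and D75 the difference of the means was -0.77 (exact permutation p = 0.0262), and without D78 as well it was -0.83 (exact permutation p = 0.0284, the largest over the 22 alternatives of this ratio). With the 2 read shares, 3 such tests were made on these genes, and their p-values are not adjusted.

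The high animals with the least FABP4 had 0.785 (D75) and 0.590 (D64) LPL reads per FABP4 read, both inside the range of the other high animals. D75, at 356 TMM CPM of FABP4, had 279.8 of LPL, whereas the low animal D76, at 353 of FABP4, had 142 of LPL. D64, at 582 of FABP4, had 343 of LPL, against 190 in the low animal D68 at 575 of FABP4. These pairs were chosen after the values were seen and carry no test.

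**Figure D4:**
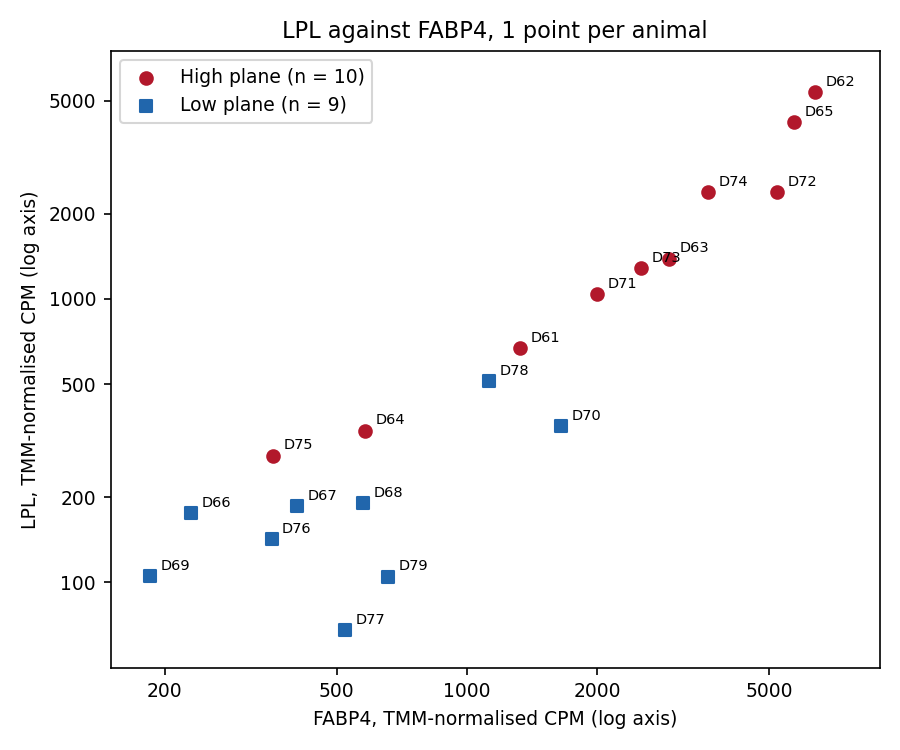
LPL against FABP4 in TMM-normalised CPM, both on log axes, 1 named point per animal (n = 10 high, n = 9 low). The high animals, D64 and D75 included, lie along a narrow band, while the low animals scatter, with D77 and D79 lowest in LPL for their FABP4.

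Across the high animals LPL and FABP4 in log2 TMM CPM followed each other closely, with r = 0.97 (permutation p = 2.0e-05, adjusted p = 0.00012) and rho = 0.99 (permutation p = 4.0e-05, adjusted p = 0.00024; n = 10). Across the low animals r was 0.60 (exact permutation p = 0.0833, adjusted p = 0.1) and rho 0.48 (exact permutation p = 0.194, adjusted p = 0.233; n = 9). Without the 2 animals farthest from the median of LPL, which were D62 and D75 in the high and D77 and D78 in the low animals, r was 0.98 (n = 8) and 0.67 (n = 7). These and the relations with library size are 6 in all, over which the p-values were adjusted, and both genes of a pair share the library and its scaling. Whether the relation differs between the diets was not tested.

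The likeness of every other gene to each of the 2 was taken as the smaller of Pearson's r over the 10 high and r over the 9 low animals, among 10053 genes with a read in all animals. For LPL, 11 genes had a value above 0.9, and FABP4, at 0.60, stood at place 448. For FABP4, 29 genes had a value above 0.9, and LPL stood at place 368. The closest gene to LPL was ENSBTAG00000003162, with r = 0.98 in the high and 0.97 in the low animals, and its own log2 fold change was -1.20 (FDR 0.000311 in the edgeR quasi-likelihood test). The closest to FABP4 was ENSBTAG00000030599, with r = 0.97 and 0.96 and a log2 fold change of -1.28 (FDR 0.0321 in the same test). Both are given by identifier because none of the 25670 identifiers was paired with a symbol here.

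CD36, the membrane protein between the lipase and the carrier, could not be followed. The identifier given for it was listed at 0 reads in all 10 high and all 9 low animals, as were 6991 of the 25670 identifiers (27.2%). A count of 0 allows a share of up to 3 reads of the total, which is 1.70e-05% of the reads in the largest library and 3.92e-05% in the smallest. The limit holds for reads counted on this identifier. Whether the identifier is the one that carries the reads of CD36 in this annotation could not be checked here. Reads that map to several places are not in these counts either, and whether such reads exist for CD36 was not tested. No level, fold change or ratio is therefore given for it, and the values do not show that its transcript was missing from the tissue.

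The other genes of the route and the markers of adipocytes, endothelial cells, macrophages and other cells were listed for comparison, but without symbols they are not analysed here. The part that the number of adipocytes or endothelial cells in the sampled tissue has in the lower LPL and FABP4 was thus not tested. In stained sections of the subcutaneous tissue, the paper counted far fewer adipocytes, of much smaller diameter, in the low than in the high animals. Those counts were not used here.

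**Figure D5:**
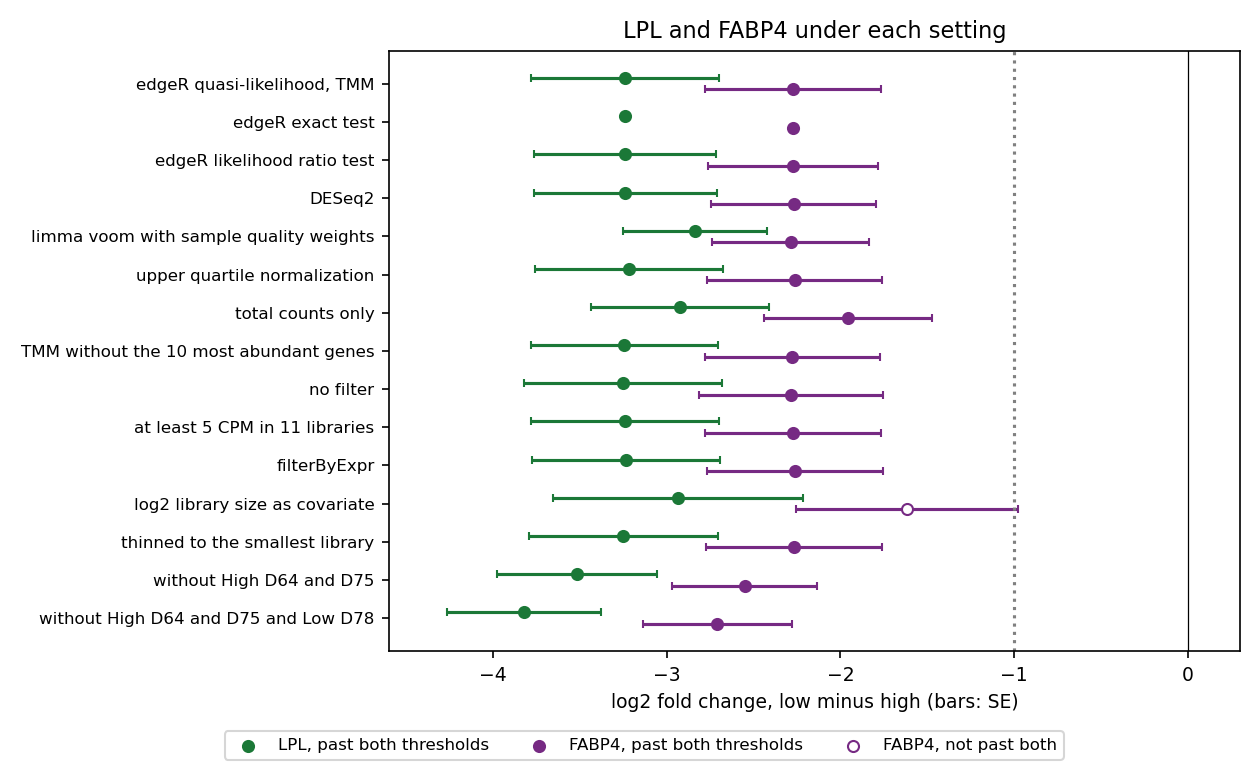
The log2 fold change, low minus high, of LPL and FABP4 under each test, scaling and filter, with library size in the model and with thinned libraries. Fits without D64 and D75, and without D78 as well, are also drawn, but those that leave out a single animal are not. Bars give the SE (the exact test gives none), and a dotted line marks a fold change of 2. Every filled point is past both thresholds, and the open point is FABP4 at -1.62 with library size in the model.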

How the data were processed

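RNA from 19 animals was sequenced as 1 single-end library each. The authors aligned reads to the bovine genome (UMD3.1) with STAR, kept those that mapped uniquely with few mismatches, counted them on Ensembl genes with HTSeq and deposited the raw counts, with no normalization or filter. The strand setting is not given in the sources used here, so reads of an overlapping antisense gene cannot be separated.

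LPL, CD36 and FABP4, the gene lists and the animals left out were chosen with earlier results of these data known. The symbols came with the 3 identifiers. Of the 25670 identifiers, 0 matched the RefSeq gene table of assembly ARS-UCD2.0 that was used, so the symbols were not checked against an annotation. No coordinates, gene lengths or sequences are given. The paper prints log2 fold changes of -3.241 for LPL and -2.273 for FABP4. The exact test of edgeR gave the same values here for the identifiers of these genes. The paper's text prints no value for CD36. The planned named genes (the 3 genes, called genes of the fixed pathway lists and the 5 genes most like each) are limited to the 3 and the closest identifier to each.

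The 10064 genes that reached 5 CPM in 9 or more libraries were tested in edgeR 4.0.16 (R 4.3.3) by quasi-likelihood F test, with TMM, robust dispersions, diet as the only term and Benjamini-Hochberg adjustment. The SE was taken as the size of the log2 fold change over the root of F. Alternatives were DESeq2 1.42.0, voom with quality weights in limma 3.58.1, the likelihood ratio and exact tests of edgeR, other scalings and filters, a library size term, thinning and leaving out animals. All 5 methods were run on simulated counts in which every gene had the same dispersion. The real genes differ in it, so this run checks the code and does not bear on LPL or FABP4. Shares and ratios were compared by two-sided exact permutation tests in scipy 1.17.1. Sire, farm, starting weight and lane were not used here.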

Additional observations from a re-analysis of the deposited data

How the results depend on the processing

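LPL kept its direction and passed both thresholds in all 33 alternatives (log2 fold change -3.82 to -2.84, the latter in voom with quality weights). FABP4 did so in 32 of 33 (-2.71 to -1.62), the exception being log2 library size as a covariate, at -1.62 with an FDR of 0.0779. Thinned to the smallest library it was at -2.27 and called, but thinning cannot remove a relation of level with library size. The differences in LPL share (-0.185 to -0.102 percentage points), FABP4 share (-0.261 to -0.171) and log2 ratio (-0.97 to -0.46) kept their direction and an exact permutation p under 0.05 in all 22 alternatives of each. Among these alternatives are 2 that leave out animals picked for lying towards the other diet (D64 and D75, and D78 as well), whose direction that choice fixed for the levels and shares. In the ranges above, the ends at -0.102 and -0.46 are differences of medians. With single animals left out, the smallest differences of means were -0.116 percentage points for LPL share and -0.65 for the log2 ratio. Genes called over the whole table numbered 731, of which 539 were lower and 192 higher in the low animals. The count was 1545 without a filter (1103 lower, 442 higher) and 1100 with filterByExpr (798 lower, 302 higher). It was 488 with the library size term (334 lower, 154 higher) and 797 on library totals alone (314 lower, 483 higher). No paired or blocked analysis was possible because the labels give neither the blocks nor a number shared between the diets. The planned ratios to CD36 and to adipocyte or endothelial markers and the counts over the pathway lists were not run, since CD36 had no reads and the identifiers no symbols. The smallest count of LPL or FABP4 in any library was 920 reads, and CD36 had 0 in libraries of every size.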

Other observations

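Dixon's test for a single animal apart from the rest of its diet singled out none in 10 sets of values (LPL and FABP4 in TMM CPM and as shares, and their log2 ratio, in each diet), where chance alone gives about 0.5. A pair of animals lying together, such as D64 and D75 at the low end of the high animals, is beyond what this test can detect.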
